A study of Rattus norvegicus with 12 samples.

Results

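Ccnd1, Cdk1 and Top2a, genes of the cell division cycle, were followed across OC1 cells given siRNA against Bcl-2. They were chosen by name and read from the table of 23978 rat genes through their Ensembl IDs, ENSRNOG00000020918 for Ccnd1, ENSRNOG00000000632 for Cdk1 and ENSRNOG00000053047 for Top2a. Of the 4 genes named for this set, these 3 had values, and Pcna was not analysed here. OC1 is a cultured line that its submitters label as cochlear sensory epithelial cells, and the labels give rat as the organism. Cells received a control siRNA (genotype WT), siRNA 1423 or siRNA 1928, with 4 libraries per group and the replicate letters A to D in each. Both siRNAs are directed at Bcl-2, an inhibitor of apoptosis, and all 3 groups, the control included, went through lipid transfection. The treatment tag of every sample names a plasmid where the protocol names siRNA, and siRNA is used here. No label says that the replicates came from separate cultures, so the p-values below measure only the spread between these libraries, which may be technical. HEI-OC1 is a mouse line, and whether it is the OC1 of these samples is not given in the sources used here; levels read against a rat genome would then be affected gene by gene.

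A dividing cell passes from G1, through DNA synthesis in S phase, to G2 and mitosis. Ccnd1 encodes cyclin D1, which accumulates in response to growth signals and activates kinases that phosphorylate the retinoblastoma protein, so that E2F factors can switch on the genes of S phase. Cdk1 encodes the kinase that cyclins A and B activate for entry into mitosis. Top2a encodes topoisomerase II alpha, which passes one DNA duplex through another to untangle replicated chromosomes, and its mRNA is most abundant in late S phase, G2 and mitosis. Levels of Cdk1 and Top2a are therefore widely read as marks of proliferating cells, whereas cyclin D1 follows growth signals and is present before S phase. In bulk RNA, fewer cells in a phase of the cycle and less mRNA per cell cannot be told apart.

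Promoters are shown for Cdk1 and Top2a because these genes are classic targets of the same cell cycle control at CCAAT boxes and the cell cycle homology region (CHR). The sequences are from RefSeq, build GRCr8, matched by symbol for 2 of the 3 genes, and hold the 250 bases before the annotated start of the gene, written 5′ to 3′ on the gene's strand. That of Cdk1 lies at chr20:19265043-19265292 on the plus strand and that of Top2a at chr10:84473094-84473343 on the minus strand. Ccnd1 was not analysed here in this respect. Capitals mark exact matches, on either strand, to these motifs: CCAAT, which reads ATTGG when it lies on the other strand; the CHR core TTTGAA, which then reads TTCAAA; the E2F sites TTTCGCGC and also TTTGGCGC; a box of GGGCGG, for Sp1 factors, which then reads CCGCCC; the cyclic AMP response element TGACGTCA; and the AP-1 site TGAGTCA.
Cdk1: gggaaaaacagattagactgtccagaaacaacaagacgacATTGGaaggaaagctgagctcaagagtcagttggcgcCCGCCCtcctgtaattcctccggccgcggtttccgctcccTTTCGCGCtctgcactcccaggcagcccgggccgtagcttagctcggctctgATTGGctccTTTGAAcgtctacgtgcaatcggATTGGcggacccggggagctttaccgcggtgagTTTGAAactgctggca
Top2a: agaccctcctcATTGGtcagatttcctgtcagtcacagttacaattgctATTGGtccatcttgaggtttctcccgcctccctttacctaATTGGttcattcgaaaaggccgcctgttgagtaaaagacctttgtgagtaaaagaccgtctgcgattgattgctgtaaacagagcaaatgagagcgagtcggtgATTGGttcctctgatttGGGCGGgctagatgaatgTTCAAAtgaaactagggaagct

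The Cdk1 promoter held 3 CCAAT matches, all as ATTGG, beginning 210, 81 and 49 bases upstream, and 2 CHR cores, beginning 72 and 16 bases upstream. It also held 1 E2F match, TTTCGCGC, beginning 133 bases upstream, and 1 Sp1 box. The Top2a promoter held 4 CCAAT matches, again all as ATTGG, beginning 239, 201, 161 and 57 bases upstream. Its 1 CHR core, as TTCAAA, began 22 bases upstream, and it had 1 Sp1 box. None of the matches overlapped another. Among 33469 rat promoters of this length in the table, CCAAT was found in 34.02%, but 3 or more copies in 2.52% and 4 or more in 0.565%. The CHR core was found in 16.2% and both it and CCAAT in 5.87%. TTTCGCGC was found in 0.248%, and the Sp1 box in 30.5%. A match is a run of letters only, and binding was not measured.

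All 3 genes were well covered. Library totals ran from 15671546 to 23247593 expected counts (estimated reads per gene, in the deposited table). Expected counts ran from 1266 to 3361 for Ccnd1, from 2482 to 3808 for Cdk1 and from 7598 to 12694 for Top2a. Levels are given below as counts per 1000000 (CPM) after TMM scaling, which corrects library sizes for composition. They compare libraries for 1 gene and not genes with each other, since gene length is not taken into account. The 18 pairs of replicates within a group differed by more than the sampling noise of whole counts. Chi-square per degree of freedom over genes was 1.94 to 5.90, where that noise alone gives a value near 1. The counts are estimates and no known copy was measured, so libraries made from the same RNA or culture were not excluded.

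The genes did not move as a block. With siRNA 1928, Ccnd1 fell to 0.557 of its control level, Top2a rose by 13.2% and Cdk1, 4.64% above control, did not pass the test. With siRNA 1423, all 3 rose by less than 10%, and each of those calls was lost when certain single libraries were left out, as given below. Tests were edgeR's quasi-likelihood F test over 12731 genes with Benjamini-Hochberg adjustment, and a gene is said to change at an adjusted p under 0.05. By that rule 22.8% of all tested genes changed with siRNA 1423, 45.2% with siRNA 1928, and 44.3% differed between the siRNAs. The balance of all calls moved with the scaling for siRNA 1928 against control, where increases made up 48.3% of calls with TMM and 64.4% with library size alone, as did that of siRNA 1928 against siRNA 1423 (48.1% and 66.4%). The median of all genes went from 0.0034 to 0.060 and from 0.0036 to 0.066 on the log2 scale, a shift close in size to the estimate for Cdk1 with siRNA 1928 (0.065) and larger than that between the siRNAs (-0.025).

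**Figure D1:**
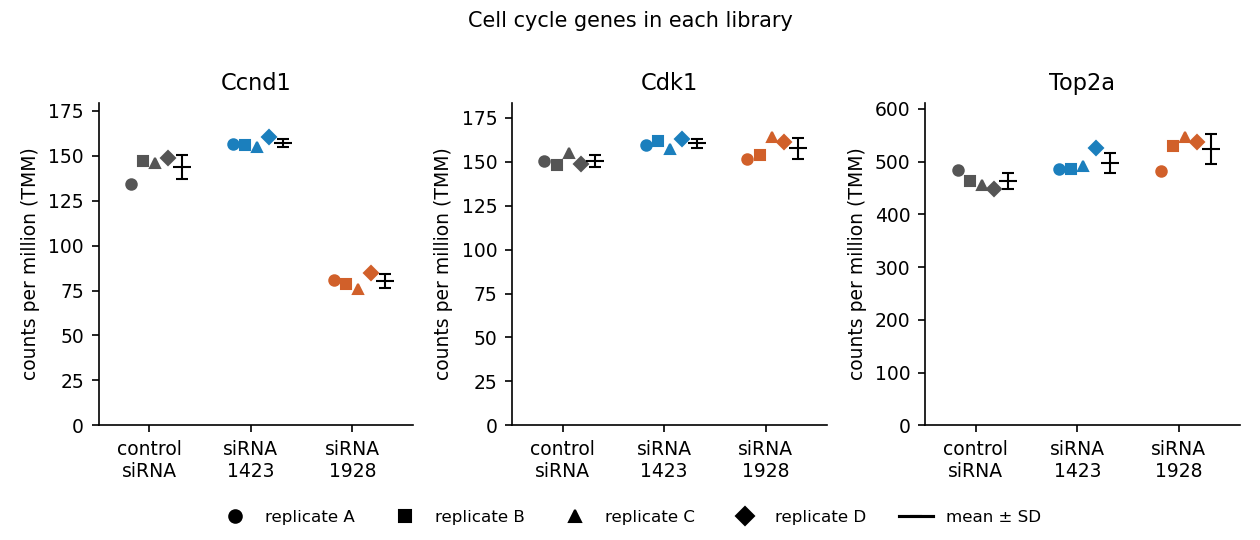
Level of Ccnd1, Cdk1 and Top2a in CPM (TMM-scaled, vertical axis from 0) in each of the 12 libraries by group; symbols give the replicate letter and the bars the mean ± SD of 4 libraries. The 4 siRNA 1928 libraries lie between 76.0 and 85.0 CPM for Ccnd1, below the other 8 libraries, whereas Cdk1 and Top2a differ little between groups.

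Ccnd1 separated siRNA 1928 from both other groups. The control libraries held 134, 147, 146 and 149 CPM in replicates A to D. With siRNA 1423 the values were 157, 156, 155 and 160 CPM. With siRNA 1928 they were 81.1, 78.4, 76.0 and 85.0 CPM. The highest siRNA 1928 library thus lay below the lowest control library and below every siRNA 1423 library, and the lowest siRNA 1423 library lay above the highest control library. Groups without overlap, in either direction, were seen in 39.4%, 39.9% and 23.7% of tested genes in these 3 comparisons. Means were 144 ± 6.67, 157 ± 2.29 and 80.1 ± 3.87 CPM for control, siRNA 1423 and siRNA 1928 (SD, n = 4 each). Control replicate A was the low library of its group.

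With siRNA 1928, Ccnd1 had a log2 fold change of -0.85 against control (SE 0.0386, 95% interval -0.93 to -0.77, adjusted p = 6.11e-14 by edgeR). This is a level of 0.557 of control, with an interval of 0.527 to 0.588. Libraries of the same letter, which are not known to be pairs, differed by -0.72, -0.90, -0.94 and -0.81 on the log2 scale from A to D. Of the 12731 genes tested, 147 had a lower log2 fold change than Ccnd1, and 2.36% lay further from 0 in either direction. Under the 11 other settings it stayed between -0.88 and -0.79, and without each library in turn between -0.88 and -0.82, with adjusted p-values of 6.57e-12 or lower.

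With siRNA 1423, Ccnd1 rose by 9.08% (log2 fold change 0.13, SE 0.0369, interval 0.049 to 0.20, adjusted p = 0.0166 by edgeR). Its size was ordinary for this comparison, as 39.4% of tested genes lay further from 0. The call rested in part on single libraries. Without control replicate A, the low one, it was 0.092 (adjusted p = 0.0619), and without replicate D of siRNA 1423 it was 0.11 (adjusted p = 0.0509). Replicates C and D alone gave 0.094 (adjusted p = 0.127).

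The siRNAs themselves differed in Ccnd1. With siRNA 1928 its level was 0.510 of that with siRNA 1423, with an interval of 0.483 to 0.539 (log2 difference -0.97, SE 0.0386, adjusted p = 8.52e-15 by edgeR). The differences for letters A to D were -0.95, -0.99, -1.03 and -0.91. Only 61 of the 12731 genes had a lower value. These 2 comparisons with siRNA 1928 and the one of siRNA 1423 share libraries, so their values are set side by side and not counted as separate support.

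**Figure D2:**
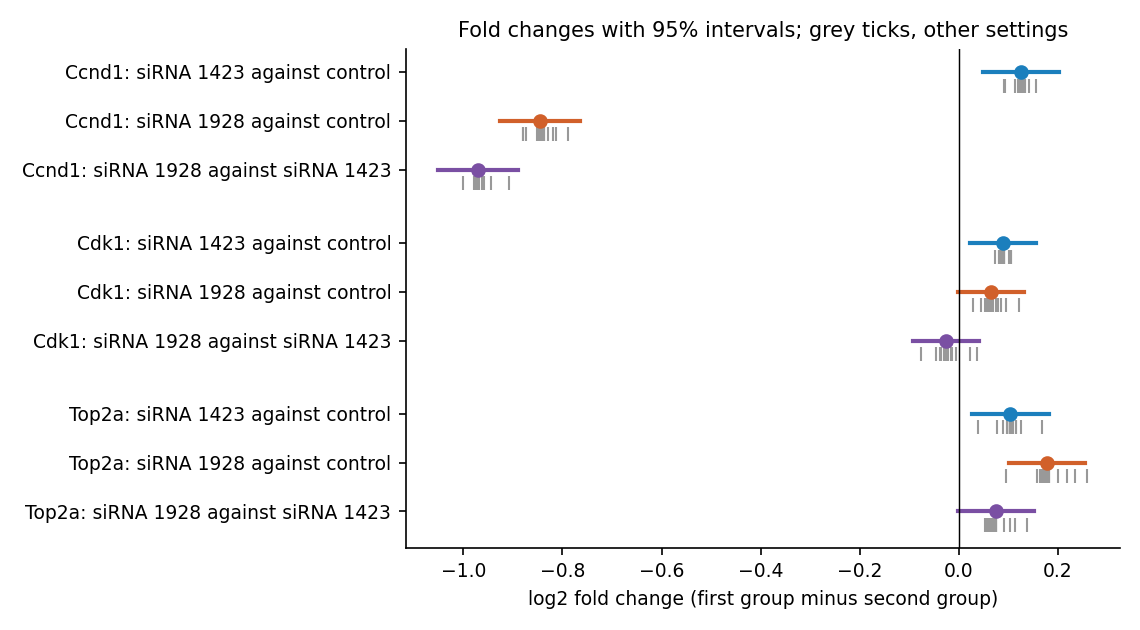
Log2 fold change (horizontal axis, first group minus second group) of each gene in the 3 comparisons; points are the edgeR estimates, coloured bars their 95% intervals and grey ticks the estimates under 11 other settings and without each of 12 libraries. Ccnd1 lies near -0.85 and -0.97 in the comparisons of siRNA 1928, and all values of Cdk1 and Top2a lie much closer to 0.

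Cdk1, the mitotic kinase, had the smallest estimated difference of the 3 genes in each comparison. Control libraries A to D held 151, 148, 155 and 148 CPM. With siRNA 1423 they held 160, 162, 157 and 163 CPM, and with siRNA 1928 151, 154, 164 and 161 CPM. All libraries of siRNA 1423 lay above all control libraries, as in 23.7% of tested genes in either direction, while siRNA 1928 overlapped both other groups. Means were 151 ± 3.30, 160 ± 2.62 and 158 ± 6.01 CPM for control, siRNA 1423 and siRNA 1928 (SD, n = 4 each).

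The rise of Cdk1 with siRNA 1423 was 6.47% (log2 fold change 0.091, SE 0.0321, interval 0.024 to 0.16, adjusted p = 0.0457 by edgeR), and 52.5% of tested genes lay further from 0. The call was lost without any 1 of 8 libraries (control A, B or D, siRNA 1423 A, B, C or D, siRNA 1928 D), where the log2 fold change was 0.082 to 0.10 and the adjusted p 0.0509 to 0.115. Without siRNA 1928 D, which is not in this comparison, the log2 fold change stayed at 0.091 (adjusted p = 0.053 by edgeR). The call lay near the threshold, so its loss does not by itself mark the library left out. With siRNA 1928 the log2 fold change was 0.065 (SE 0.0320, adjusted p = 0.102 by edgeR), with an interval of -0.0728% to 9.57% relative to control. With library size alone it was 0.12 (adjusted p = 0.00237) and without replicate A of siRNA 1928 it was 0.085 (adjusted p = 0.046), which passed the test. Between the siRNAs the log2 difference was -0.025 (SE 0.0320, adjusted p = 0.564), and its interval of -6.15% to 2.91% holds changes in both directions.

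Top2a, the chromosome-untangling enzyme, had higher means with both siRNAs. Control libraries A to D held 483, 463, 456 and 449 CPM. With siRNA 1423 they held 486, 486, 493 and 525 CPM, with replicate D apart from the others. With siRNA 1928 they held 482, 531, 546 and 538 CPM, with replicate A well under the others and just below control replicate A. Replicates B, C and D of siRNA 1928 lay above every control library and every library of siRNA 1423. With replicate A, the siRNA 1928 group overlapped both other groups. All libraries of siRNA 1423 lay above all control libraries, as in 23.7% of tested genes in either direction. Means were 463 ± 15.0, 498 ± 18.7 and 524 ± 29.1 CPM for control, siRNA 1423 and siRNA 1928 (SD, n = 4 each).

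With siRNA 1928, Top2a rose by 13.2% (log2 fold change 0.18, SE 0.0370, interval 0.10 to 0.26, adjusted p = 0.00041 by edgeR). This too was an ordinary size, with 42.3% of tested genes further from 0. Between libraries of the same letter the log2 differences were -0.0058, 0.20, 0.26 and 0.26 from A to D, so replicate A of siRNA 1928 did not exceed control replicate A. Replicates A and B alone gave 0.095 (adjusted p = 0.0753) and replicates C and D alone 0.26 (adjusted p = 1.84e-07). With siRNA 1423, Top2a rose by 7.52% (log2 fold change 0.10, SE 0.0371, interval 0.028 to 0.18, adjusted p = 0.0453 by edgeR). Without any 1 of 9 libraries (control B, C or D, siRNA 1423 A, B, C or D, siRNA 1928 B or D) it was 0.077 to 0.12, with adjusted p-values of 0.0514 to 0.166. It was lowest without replicate D of siRNA 1423, and replicates A and B alone gave 0.039 (adjusted p = 0.611). Without siRNA 1928 B or D, which are not in this comparison, the log2 fold change stayed at 0.10 (adjusted p = 0.0518 and 0.0526 by edgeR). This call too lay near the threshold.

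The difference of Top2a between the siRNAs was 0.075 on the log2 scale (SE 0.0370, adjusted p = 0.108 by edgeR), with an interval from -0.14% to 11.1%. It passed the test without replicate D of siRNA 1423 (0.10, adjusted p = 0.0336), without replicate A of siRNA 1928 (0.11, adjusted p = 0.01), with library size alone (0.14, adjusted p = 0.00322) and in replicates C and D alone (0.092, adjusted p = 0.0289).

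**Figure D3:**
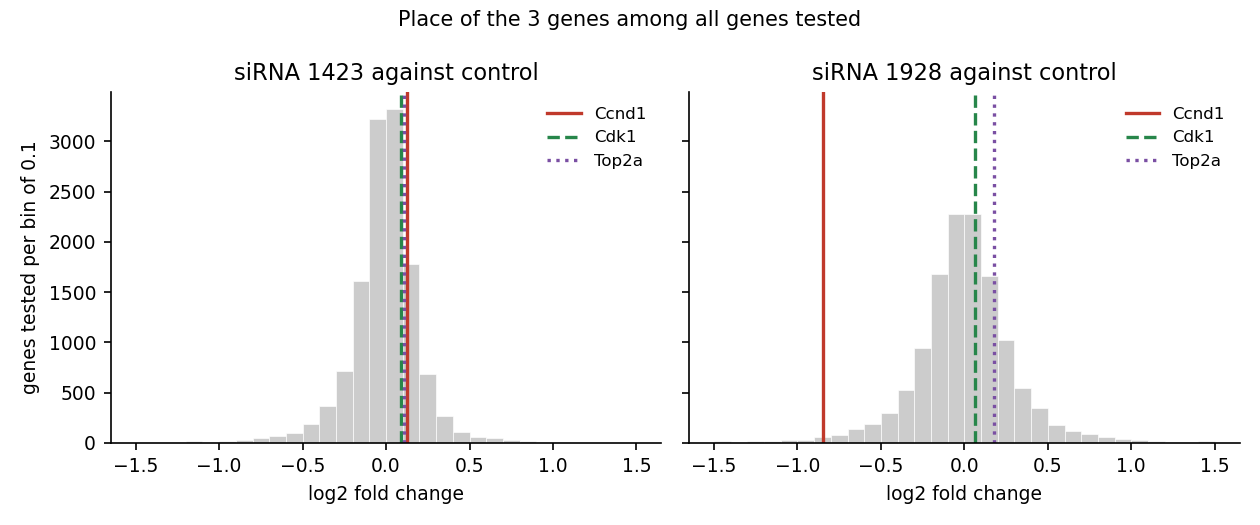
Number of tested genes (vertical axis) by log2 fold change in bins of 0.1 (horizontal axis) for siRNA 1423 and siRNA 1928 against control, with lines at Ccnd1, Cdk1 and Top2a; genes beyond 1.5 in either direction are counted in the outermost bins. With siRNA 1423 the 3 lines fall together on the higher side of the distribution, at 0.091 to 0.13. Of 12731 genes tested there, 9475 had a lower value than Cdk1 and 10359 a lower value than Ccnd1. With siRNA 1928, Ccnd1 at -0.85 lies in the lower tail.

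The genes were chosen with earlier results of these data known, so counts over the set are a description and not a test. With siRNA 1423, 3 of the 3 genes passed the test, all higher, against 11.3% of all tested genes in that direction. This count was 0 without replicate D of siRNA 1423, 1 without any 1 of 7 other libraries (control A, B or D, siRNA 1423 A, B or C, siRNA 1928 D), and 1 with library size alone. All genes called in these fits, in either direction, numbered 2516, 2350 to 2862 and 2900 in the same order, against 2903 in the main fit. With siRNA 1928, 1 was lower (23.3% of all tested genes were) and 1 higher (21.8%). Between the siRNAs 1 of 3 differed, lower with siRNA 1928 (23% of all tested genes). The median log2 fold change of the 3 was 0.10 with siRNA 1423 and 0.065 with siRNA 1928, against -0.0012 and 0.0034 over all genes tested.

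Spread between libraries was close to the counting limit for some groups and well above it for others. Counting error alone gives a coefficient of variation near 1.88% for Ccnd1, 1.84% for Cdk1 and 1.05% for Top2a in the control group. The observed values there were 4.63%, 2.19% and 3.23%. With siRNA 1423 they were 1.46%, 1.63% and 3.76%, where counting error alone gives 1.86%, 1.84% and 1.05%, so that the spread of Ccnd1 and Cdk1 was no larger than counting error. With siRNA 1928 they were 4.83%, 3.82% and 5.55%.

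The ratio of 2 genes within a library does not depend on how libraries are scaled, and it was tested between groups by permuting 4 and 4 libraries exactly, two-sided. Such exact permutation tests cannot give a p under 0.0286, and p-values were adjusted over 9 tests (3 pairs of genes, 3 comparisons), so an adjusted p under 0.05 would have needed more tests at this minimum than were found. The counts of Ccnd1 relative to Cdk1 averaged 0.957 ± 0.0519, 0.979 ± 0.0106 and 0.509 ± 0.0322 for control, siRNA 1423 and siRNA 1928 (SD, n = 4 each). Relative to Top2a they were 0.312 ± 0.0237, 0.316 ± 0.00785 and 0.153 ± 0.0127 in the same order.

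Ccnd1 was thus lower against both other genes in all 4 libraries of siRNA 1928 than in any of the other 8. The log2 ratio of Ccnd1 to Cdk1 differed from control by -0.91 and that of Ccnd1 to Top2a by -1.02 (exact permutation p = 0.0286 and adjusted p = 0.0643 for each). Against siRNA 1423 the differences were -0.94 and -1.05, with the same p-values. With siRNA 1423 against control they were 0.034 and 0.021 (exact permutation p = 0.514 and 0.857, adjusted p = 0.661 and 0.857).

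Cdk1 relative to Top2a moved less. Its ratio averaged 0.326 ± 0.0126, 0.323 ± 0.010 and 0.301 ± 0.010, again in that order (SD, n = 4 each). The log2 difference was -0.11 for siRNA 1928 against control and -0.10 against siRNA 1423 (exact permutation p = 0.0571, adjusted p = 0.0857 for each), and the groups overlapped. For siRNA 1423 against control it was -0.013 (exact permutation p = 0.743, adjusted p = 0.836).

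**Figure D4:**
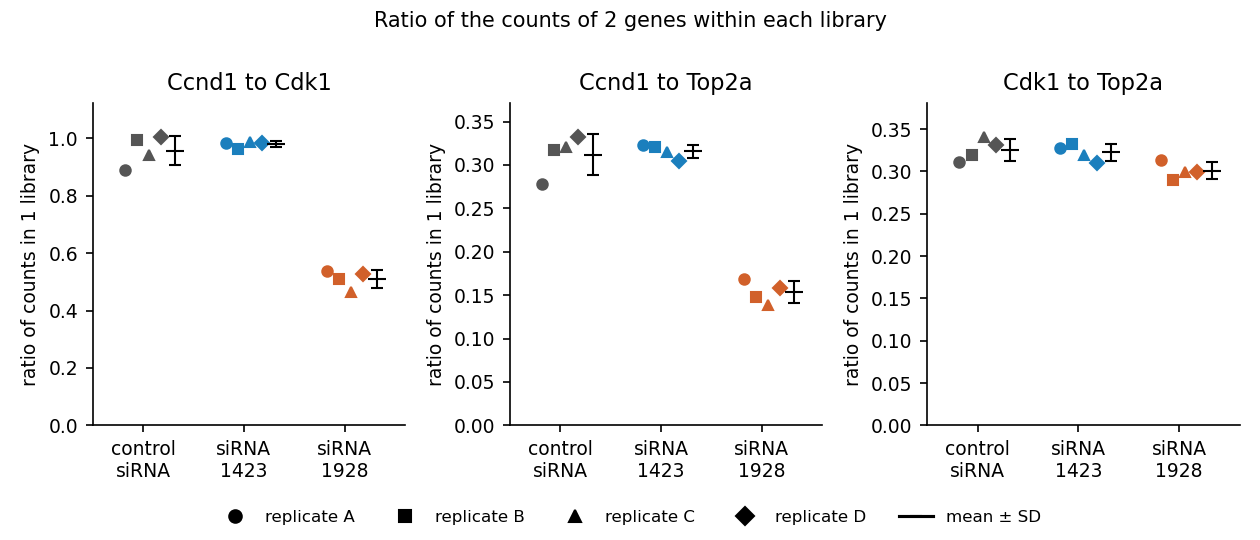
Ratio of the expected counts of 2 genes within each of the 12 libraries (vertical axis from 0) by group; symbols give the replicate letter and bars the mean ± SD of 4 libraries. Ccnd1 relative to Cdk1 is 0.464 to 0.536 in the siRNA 1928 libraries and 0.891 to 1.00 in the other 8, while Cdk1 relative to Top2a overlaps between groups.

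Likeness of pattern was measured as the root mean square difference between genes over the 12 libraries, in log2 CPM centred on the control mean of each gene. Cdk1 and Top2a were 0.0788 apart, Ccnd1 and Cdk1 0.529 and Ccnd1 and Top2a 0.597. Of 10499 other genes averaging at least 5 CPM, 1010 were nearer to Cdk1 than Top2a was and 333 were nearer to Top2a than Cdk1 was. Small changes bring many genes close together, and 2147 lay within 0.1 of Cdk1 and 1068 within 0.1 of Top2a, but 10 within 0.1 of Ccnd1.

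The gene nearest to Ccnd1 was ENSRNOG00000006865, at a distance of 0.0536. Control libraries averaged 505 ± 16.3 CPM of it, siRNA 1423 libraries 535 ± 15.2 CPM and siRNA 1928 libraries 286 ± 3.73 CPM (SD, n = 4 each). Log2 fold changes of 0.083 and -0.82 (adjusted p = 0.043 and 1.13e-15 by edgeR) thus went the same 2 ways as those of Ccnd1, for which it had been picked. Nearest to Cdk1, at 0.0234, was ENSRNOG00000032436, with means of 173, 181 and 178 CPM in the same order. Nearest to Top2a, at 0.0385, was ENSRNOG00000049507, with means of 113, 119 and 127 CPM. The table pairs no ID with a symbol, so these 3 genes are given by ID only.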

How the data were processed

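Strand-specific poly(A) RNA sequencing of 12 libraries gave the deposited table, which holds expected counts per Ensembl gene; the unit was read from the deposited values, of which 71.3% were whole to within 1e-06. Per the submitters' processing notes, tools included DESeq2 1.24.0, fastp 0.21.0 and bcl2fastq 2.20 and the build was mRatBN7.2. Not given in the sources used here are the program that aligned or counted reads, the annotation release and whether counting used strand.

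Groups came from the sample titles. Expected counts were rounded, filtered with filterByExpr (minimum count 10, minimum total 15), scaled by TMM and fitted with 1 mean per group over all 12 libraries with edgeR's quasi-likelihood test (edgeR 4.0.16, limma 3.58.1, R 4.3.3). P-values were adjusted over all genes tested, log2 CPM used a prior count of 2, and standard errors came from the F statistic. DESeq2 1.42.0 and limma voom were alternatives, with other scalings, filters, sample sets and a replicate block. The fits were tested on simulated data. Ratios were tested with scipy 1.17.1, and figures drawn with matplotlib 3.10.9. Ratio tests had been planned for all 4 genes and were run for 3.

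The genes and lists were chosen with earlier results of these data known. Named genes are the members and, for each, the gene ID with the most similar pattern among genes of at least 5 CPM. Reference tables paired 0 of the IDs with symbols, so lists of other cell cycle genes, BCL2 family genes, p53 targets and cell type markers were not used here. The labelled cell type and the level of Bcl2 were therefore not checked. No columns of other samples were present (0). Replicate letters were not treated as pairs, since no label or protocol says that libraries of 1 letter belong together. Libraries of 1 letter did deviate together in all 12 comparisons between groups. Their correlations were 0.030 to 0.13, and 5 of the 12 were above 0.1. Correlations of libraries of different letters ran from -0.17 (control A with siRNA 1423 D) to 0.16 (siRNA 1423 D with siRNA 1928 C).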

Additional observations from a re-analysis of the deposited data

Results flagged for a closer look

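Ccnd1 differed between the siRNAs, by -0.97 on the log2 scale for siRNA 1928 against siRNA 1423, the difference itself having been tested in the edgeR fit. It was higher than control with siRNA 1423 (log2 fold change 0.13) and lower with siRNA 1928 (-0.85). The call of the rise was lost without control replicate A, without replicate D of siRNA 1423 and in replicates C and D alone. That of the fall was kept under every setting.

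Of 18 groups of 4 values searched for a library far from the others, 2 had one, where chance picks out about 1 in 20. Replicate D of siRNA 1423 held 525 CPM of Top2a, apart from the other 3 libraries of its group. Replicate B of siRNA 1423 had a log2 ratio of Ccnd1 to Cdk1 of -0.054, lower than its group, in which the other values lay very close together.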

How the results depend on the processing

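Both comparisons of Ccnd1 with siRNA 1928 kept direction and call under all 11 alternatives and without each of the 12 libraries (-0.88 to -0.79 against control, -1.0 to -0.91 against siRNA 1423, log2). With library size alone, the log2 fold changes with siRNA 1423 lost the call for Cdk1 (0.084) and Top2a (0.098), Cdk1 passed with siRNA 1928 (0.12), Top2a passed between the siRNAs (0.14) and Cdk1 between the siRNAs turned to 0.038. Without the low-count filter Cdk1 with siRNA 1423 was 0.091 and not called; the cause was not tested. Replicates A and B alone left uncalled Cdk1 (0.11) and Top2a (0.039) with siRNA 1423 and Top2a with siRNA 1928 (0.095). Replicates C and D alone left uncalled Ccnd1 (0.094) and Cdk1 (0.073) with siRNA 1423, turned Cdk1 between the siRNAs to 0.024 and gave a call to Top2a there (0.092). Genes of the set called with siRNA 1423 numbered 1 with library size alone, in A and B and in C and D. All genes called there numbered 2900, 1535 and 2361, against 2903 in the main fit. With siRNA 1928 there was 1 gene of the set in A and B, where all genes called fell from 5752 to 4446. Between the siRNAs there were 2 with library size alone and in C and D. All genes called there numbered 6062 and 4743, against 5645 in the main fit. The fits of A and B or of C and D hold fewer samples.

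Without 1 library at a time, log2 fold changes with siRNA 1423 ran from 0.092 to 0.14 for Ccnd1, 0.082 to 0.11 for Cdk1 and 0.077 to 0.13 for Top2a, and 0 to 3 of the genes were called. All genes called with siRNA 1423 then numbered 2350 to 2893. No gene of the set was called without replicate D of siRNA 1423, where the adjusted p-values of the set were 0.0509 to 0.166 by edgeR. Cdk1 with siRNA 1928 ran from 0.045 to 0.085. Top2a between the siRNAs ran from 0.054 to 0.11, with 1 to 2 genes of the set called there and 5068 to 5809 of all genes. For siRNA 1423 against control, where no ratio passed the test, the log2 ratio of Ccnd1 to Cdk1 ran from -0.00033 to 0.057, that of Ccnd1 to Top2a from -0.034 to 0.052 and that of Cdk1 to Top2a from -0.034 to 0.0086. The negative ratios of Ccnd1 came without control replicate A (-0.00033 and -0.034), and the positive ones of Cdk1 to Top2a without control replicate C (0.0086) or replicate D of siRNA 1423 (0.0055). A pseudocount of 10 and unrounded counts changed no ratio's direction or call.

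With the replicate block, log2 fold changes were 0.12, 0.090 and 0.10 for Ccnd1, Cdk1 and Top2a with siRNA 1423 and -0.85, 0.065 and 0.18 with siRNA 1928. The block changed no call of the 3 genes, and all genes called rose to 3365 and 6174. A term for letters A and B against C and D changed none either. With that term, all genes called rose to 3549 with siRNA 1423 and 6328 with siRNA 1928. Top2a between the siRNAs then had an adjusted p of 0.0509 by edgeR. In 13 of 24 comparisons, each with 4 libraries to choose from, a library deviated most like the one of its own letter. This is a hint of pairing from the data and not from the design.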
